A study of Mus musculus with 8 samples.

Results

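Msrb1 and 9 other enzymes that repair oxidized methionine or remove superoxide and peroxides were followed in mouse kidneys of 3 genotypes. They are the methionine sulfoxide reductases Msrb1, Msrb2, Msrb3 and Msra, the glutathione peroxidases Gpx1, Gpx3 and Gpx4, the thioredoxin reductase Txnrd2, the superoxide dismutase Sod2 and catalase, Cat. The 10 genes were taken by name from 22180 genes measured on the arrays. Msrb1 was chosen by its measured values, which were lower in both mutants than in wild type, so its differences from wild type are given as a description with no test. The other 9 were named for their function.

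Whole kidneys were snap frozen from mice aged 2 months, and total RNA of each was put on 1 array. The groups were 3 Col4a3-/-OPN-/- mice (double mutant), 3 Col4a3-/- mice (single mutant) and 2 Wild Type mice. Loss of Col4a3, a type IV collagen chain of the glomerular basement membrane, models Alport syndrome, a hereditary kidney disease, and OPN is osteopontin, a secreted matrix protein. Both mutant groups lack Col4a3, and the labels used here give neither strain nor sex.

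Reactive oxygen turns methionine in proteins into methionine sulfoxide, in an S and an R form. Msra reduces the S form, and the MsrB enzymes reduce the R form. Superoxide dismutases turn superoxide into hydrogen peroxide, which catalase and the glutathione peroxidases then remove. Msrb1, Gpx1, Gpx3, Gpx4 and Txnrd2 are selenoproteins, which carry selenocysteine at the active site, whereas Msrb2 and Msrb3 use cysteine there. The proximal tubule, the segment that reabsorbs most of the filtrate, is rich in mitochondria and peroxisomes and is the main source of the Gpx3 secreted into plasma.

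The deposited values are on a log2 scale, and the medians of the 8 arrays lay between 5.18 and 5.25. The sex of each mouse was read from Xist, made by the silenced X of females, and from Uty, Kdm5d and Eif2s3y on the Y chromosome. It came out as 2 females and 1 male among the double mutants (male: array 3), 2 females and 1 male among the single mutants (male: array 2) and 2 males in wild type. Sex and genotype were therefore not balanced. Single mutant 2 stood apart, with a mean of 9.94 over 18 markers of the proximal tubule, against 10.81 to 11.07 in double mutants, 11.10 and 11.34 in the other single mutants and 11.50 and 11.55 in wild type. All 18 of these markers lay above the signal filter. Col4a3 itself had 6.82, 6.13 and 7.60 in double mutants and 7.65, 7.67 and 6.60 in single mutants, against 8.77 and 8.42 in wild type, and neither difference passed the test (limma, adjusted p = 0.0998 and adjusted p = 0.162). It was not known here if its probes lie in the deleted stretch.

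Groups were compared with limma in 1 model over 7145 genes. These had a mean over the arrays above 6.64 on the log2 scale, which 75 percent of the probe sets did not reach. P values were adjusted over all 7145 genes and called under 0.05. Of the 10 enzymes 8 were above this filter, while Msrb3 and Txnrd2 were below it and are given as values with no test. Sex was added as a term in another fit, called the sex-adjusted fit below. Since wild type had males alone, the size of that term comes from the mutant mice and is assumed to hold in wild type too.

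Msrb1, the R-form reductase of cytosol and nucleus, had about the same value on every array of a group. The double mutants gave 9.09, 9.10 and 9.11 and the single mutants 8.89, 8.78 and 8.73, against 10.33 and 10.33 in wild type. The 3 groups did not overlap, and every mutant array lay more than 1 log2 unit below both wild type arrays. Mean levels were 9.10 ± 0.011 (SD, n = 3) in double mutants, 8.80 ± 0.085 (SD, n = 3) in single mutants and 10.33 ± 0.0006 (SD, n = 2) in wild type. That is a difference of -1.23 for the double mutant, or 2.35-fold lower than wild type, and of -1.53 for the single mutant, or 2.89-fold lower. The male mutants had the levels of their groups, 9.11 in the double mutant and 8.78 in the single mutant. In whole kidneys, fewer cells of a type and less RNA per cell cannot be told apart.

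**Figure D1:**
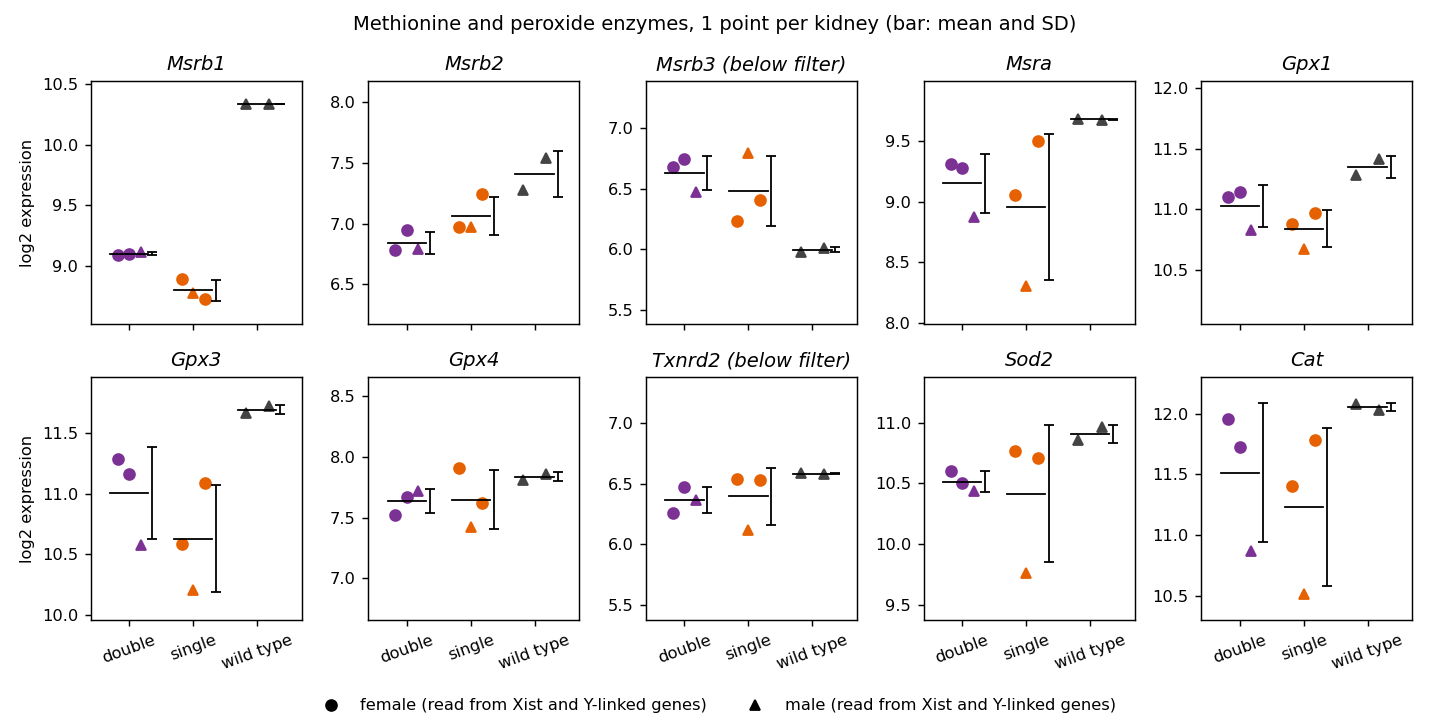
Log2 expression (y axes, each spanning at least 2 log2 units) of the 10 enzymes in double mutant, single mutant and wild type kidneys, 1 point per mouse, with the mean as a line, the SD as an error bar and the sex read from the arrays as the symbol. The Msrb1 points of a group sit close together and the 3 groups are apart, whereas the points of Cat, Gpx3 and Msra are spread more widely within each mutant group.

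The second deletion was asked about by setting double against single mutants, a comparison that was not itself used to choose Msrb1. It rests on the same mutant arrays and the same spread within groups as the comparisons that chose Msrb1. It is therefore not independent of that choice. All 3 double mutants had more Msrb1 than all 3 single mutants, by 0.30 on the log2 scale (SE 0.10, 95% interval 0.06 to 0.54). With a limma p of 0.0201 before adjustment and an adjusted p of 1, the difference did not pass over all genes. An exact permutation test of 3 arrays against 3 cannot go below a two-sided p of 0.1. The excess was 0.28 in females, 2 mice per group, and 0.33 in males, 1 mouse per group.

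Msrb1 (chr17:24736593-24742778, GRCm38) lies between Rpl3l, which ends 450 bases before it, and Hs3st6, which starts 10210 bases after it. Of the 3 measured genes nearest on each side, Snhg9, Rpl3l, Hs3st6 and Meiob were below the filter. Ndufb10, a subunit of respiratory complex I, had differences from wild type of -0.58 in double mutants (limma, adjusted p = 0.0829) and -0.29 in single mutants (adjusted p = 0.243). Hagh, a glyoxalase, had differences of -0.24 in double mutants (adjusted p = 0.499) and -0.43 in single mutants (adjusted p = 0.232). No neighbour passed the test, and over these 6 genes the differences from wild type ran between -0.58 and 0.13.

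The promoters of Msrb1, Gpx3 and Cat, the enzymes furthest below wild type in single mutants, are shown with 3 kinds of short motif in capitals. Each is 300 bases long, 250 before and 50 after the start of transcription, from RefSeq on GRCm38.p6, written 5′ to 3′ on the strand of the gene. They lie at chr17:24736343-24736642 on the plus strand, chr11:54902604-54902903 on the plus strand and chr2:103485104-103485403 on the minus strand.
Msrb1: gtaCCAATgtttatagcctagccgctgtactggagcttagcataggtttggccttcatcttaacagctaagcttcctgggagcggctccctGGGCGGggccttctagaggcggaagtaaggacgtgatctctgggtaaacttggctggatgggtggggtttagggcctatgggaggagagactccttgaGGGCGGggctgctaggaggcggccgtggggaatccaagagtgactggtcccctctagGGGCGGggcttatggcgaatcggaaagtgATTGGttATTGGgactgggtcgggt
Gpx3: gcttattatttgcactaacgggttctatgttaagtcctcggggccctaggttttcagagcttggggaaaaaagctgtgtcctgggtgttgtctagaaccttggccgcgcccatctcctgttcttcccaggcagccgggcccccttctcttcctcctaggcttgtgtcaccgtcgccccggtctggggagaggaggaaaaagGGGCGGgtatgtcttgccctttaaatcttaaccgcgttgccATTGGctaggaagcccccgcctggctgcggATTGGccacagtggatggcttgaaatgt
Cat: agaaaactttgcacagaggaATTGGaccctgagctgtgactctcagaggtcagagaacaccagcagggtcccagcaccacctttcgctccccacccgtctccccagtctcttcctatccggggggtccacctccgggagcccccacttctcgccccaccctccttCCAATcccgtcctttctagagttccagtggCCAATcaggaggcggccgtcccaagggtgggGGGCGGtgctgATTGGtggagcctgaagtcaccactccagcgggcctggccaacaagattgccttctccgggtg
The motifs searched on both strands were the GC box GGGCGG, the CCAAT box CCAAT and the core of the antioxidant response element, TGACNNNGC, and none overlapped another. The Msrb1 window held 3 GC boxes and 3 CCAAT boxes, the Gpx3 window 1 and 2, and the Cat window 1 and 4. None of these 3 windows held the antioxidant response core, which says only that these letters are not in the window. Of 32851 such windows over all genes, 35.66 percent held a GC box, 37.41 percent a CCAAT box and 12.39 percent the antioxidant response core. Windows were at hand for 9 of the 10 genes, and the only 1 with that core was that of Msrb2.

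The other methionine sulfoxide reductases had smaller differences from wild type than Msrb1. Msrb2, the mitochondrial R-form enzyme, measured 6.78, 6.95 and 6.80 in double mutants and 6.97, 6.97 and 7.24 in single mutants, against 7.28 and 7.55 in wild type. Both mutant groups lay below wild type without overlap, and here the double mutants were the lowest, with all 3 below all 3 single mutants. The difference from wild type was -0.57 in double mutants (SE 0.15, limma, adjusted p = 0.1) and -0.35 in single mutants (SE 0.15, adjusted p = 0.216). Double minus single mutant was -0.22 (95% interval -0.53 to 0.09), the opposite sign to Msrb1.

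Msra, the S-form reductase found in cytosol and mitochondria, measured 9.31, 9.27 and 8.87 in double mutants and 9.06, 8.30 and 9.50 in single mutants, against 9.68 and 9.67 in wild type. Both male mutants had the lowest value of their group. Its differences from wild type were -0.53 (SE 0.32, limma, adjusted p = 0.365) in double and -0.72 (SE 0.32, adjusted p = 0.22) in single mutants.

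Msrb3, the reductase of the endoplasmic reticulum, was the only 1 of the 10 with a higher mean in the mutants. The double mutants gave 6.68, 6.74 and 6.48 and the single mutants 6.24, 6.80 and 6.41, against 5.98 and 6.01 in wild type. No mutant array overlapped wild type. Its mean was below the filter, and it was not tested. Single mutant 2, double mutant 2 and double mutant 1 had the highest Msrb3. The mean of 14 macrophage markers was 7.78, 8.04 and 7.78 in double mutants and 7.04, 8.34 and 7.03 in single mutants, against 6.19 and 6.34 in wild type. The mean of 9 fibroblast and matrix markers was 8.67, 8.86 and 8.40 in double mutants and 7.87, 9.25 and 8.14 in single mutants, against 6.85 and 6.96 in wild type. The part of these cells in the Msrb3 level was not tested.

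Among the peroxide enzymes Gpx3, the secreted glutathione peroxidase, had the largest difference after Msrb1. The double mutants gave 11.29, 11.16 and 10.58 and the single mutants 10.59, 10.21 and 11.09, against 11.66 and 11.72 in wild type. All mutants lay below wild type, and the male of each mutant group was the lowest. The difference was -0.68 (SE 0.29, limma, adjusted p = 0.224) in double and -1.06 (SE 0.29, adjusted p = 0.119) in single mutants, without passing.

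Catalase, the peroxide-splitting enzyme of peroxisomes, measured 11.95, 11.72 and 10.87 in double mutants and 11.41, 10.51 and 11.78 in single mutants, against 12.08 and 12.03 in wild type. The male was again the lowest of each mutant group, and the females lay nearer to wild type. The difference was -0.54 (SE 0.41, limma, adjusted p = 0.467) in double and -0.82 (SE 0.41, adjusted p = 0.263) in single mutants.

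Gpx1, the peroxidase of cytosol and mitochondria, measured 11.10, 11.14 and 10.83 in double mutants and 10.87, 10.67 and 10.97 in single mutants, against 11.29 and 11.41 in wild type. Its differences of -0.32 (SE 0.15, limma, adjusted p = 0.263) in double and -0.51 (SE 0.15, adjusted p = 0.132) in single mutants did not pass, although the mutants lay below wild type without overlap.

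Sod2, the manganese superoxide dismutase of mitochondria, measured 10.61, 10.50 and 10.44 in double mutants and 10.77, 9.76 and 10.71 in single mutants, against 10.86 and 10.96 in wild type. Single mutant 2 alone was more than 0.6 below every other array. The differences were -0.40 (SE 0.29, limma, adjusted p = 0.44) in double and -0.50 (SE 0.29, adjusted p = 0.313) in single mutants.

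Gpx4, which reduces lipid peroxides in membranes and protects cells from ferroptosis, measured 7.52, 7.67 and 7.72 in double mutants and 7.90, 7.42 and 7.62 in single mutants, against 7.81 and 7.86 in wild type. Its single mutants overlapped wild type. The 95% interval of its difference from wild type ran from -0.58 to 0.18 in double and from -0.57 to 0.19 in single mutants. No change and changes within those ranges were both compatible with the data. Txnrd2, the thioredoxin reductase of mitochondria, was below the filter, with 6.26, 6.47 and 6.37 in double mutants and 6.53, 6.12 and 6.53 in single mutants, against 6.59 and 6.58 in wild type.

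Of the other 7 enzymes above the filter, 0 passed against wild type in either mutant in limma. Over all genes 0.084 percent were called in the double mutant, 6 of 7145, and 0.028 percent in the single mutant, 2 of 7145, and those called lower were 0.028 percent and 0.014 percent. Before adjustment 2 of 7 had a p under 0.05 in the double mutant (Gpx3 and Msrb2), where 21.6 percent of all genes did, and 2 of 7 in the single mutant (Gpx1 and Gpx3), where 23.2 percent did. All 7 in double mutants and 6 of 7 in single mutants had values that did not overlap wild type, while the same held for 46.2 percent and 48.4 percent of all tested genes. The median difference of the 7 was -0.53 in double and -0.51 in single mutants, against -0.08 and -0.07 over all tested genes. The 2 comparisons share the wild type arrays.

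Between double and single mutants 0 of the 8 enzymes and 0 of 7145 genes (0 percent) passed in limma, while 104 genes (1.46 percent) had an unadjusted p under 0.05, Msrb1 among them. Besides Msrb1, whose choice rests on the same arrays, 1 of 7 enzymes, Msrb2, had no overlap between these groups, against 5.01 percent of all tested genes. The 95% intervals reached from -0.57 to 1.14 for Cat and from -0.22 to 0.98 for Gpx3. With 3 arrays a group, no difference and differences within those ranges were both compatible with the data.

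Sex moved with several of these enzymes. In the sex-adjusted fit Cat was higher in females by 1.03 (limma, adjusted p = 0.00851), Msra by 0.70 (adjusted p = 0.0443) and Gpx3 by 0.64 (adjusted p = 0.0401). Msrb1 had a term of 0.01 (adjusted p = 0.974). The term rests on mutants with 1 male per group, and the male single mutant was array 2, which stood apart in its tubule markers. Sex and the state of those kidneys cannot be told apart in it. For Msra, females had a mean of 9.28 and the male 8.30 in single mutants, and 9.29 and 8.87 in double mutants. In this fit 5 of the 7 enzymes tested besides Msrb1 were lower in double mutants, where 17.8 percent of all tested genes were called lower. In single mutants 5 were lower, against 19.9 percent of all tested genes. Cat was then lower than wild type by -1.22 in double mutants (SE 0.18, limma, adjusted p = 0.0101) and by -1.50 in single mutants (SE 0.18, adjusted p = 0.00617). Gpx3 was lower by -1.11 (adjusted p = 0.0113) in double and -1.49 (adjusted p = 0.00726) in single mutants. Msra was lower by -0.99 (adjusted p = 0.019) in double and -1.19 (adjusted p = 0.0112) in single mutants, and Gpx1 by -0.51 (adjusted p = 0.0317) and -0.69 (adjusted p = 0.0127).

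Msrb2 passed in the double mutant alone, at -0.64 (limma, adjusted p = 0.0332), and Sod2 in the single mutant alone, at -0.86 (adjusted p = 0.0331). In the other mutant Sod2 had -0.76 (adjusted p = 0.0513) and Msrb2 had -0.42 (adjusted p = 0.101), and neither differed between the mutants by the test of that difference. Gpx4 did not pass in either. The median of all tested genes was -0.15 in this fit for both mutants. Its calls rest on few arrays. Without single mutant 2, 0 of the 7 were called in the single mutant in limma. There Sod2 had -0.29 (adjusted p = 0.382), Msra -0.82 (adjusted p = 0.126), Gpx1 -0.72 (adjusted p = 0.097), Cat -1.43 (adjusted p = 0.0683) and Gpx3 -1.50 (adjusted p = 0.0722). Without wild type 2 the counts were 0 of 7 in double mutants and 1 of 7 in single mutants, and without wild type 1 the double mutant count was 2. The double mutant count was 3 without single mutant 2 or 3 and without double mutant 1 or 2.

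**Figure D2:**
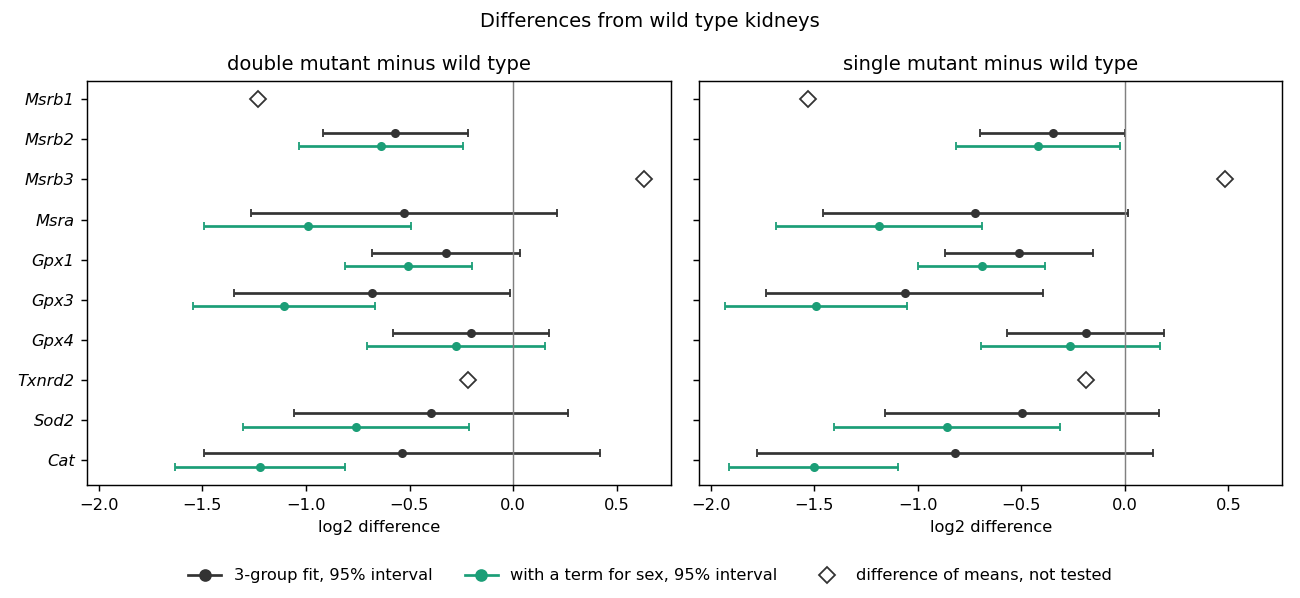
Log2 differences (x axis) from wild type of the 10 enzymes in double mutants (left) and single mutants (right), with 95% intervals, from the fit of the 3 groups and from the sex-adjusted fit. Open diamonds are differences of means that were not tested, at -1.23 and -1.53 for Msrb1, and the intervals of Cat clear 0 only in the sex-adjusted fit.

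Males alone, with 1 mouse per mutant group and no test, gave differences from the 2 wild type males in the same directions. They were -1.18 in the double and -1.54 in the single mutant for Cat, -1.11 and -1.48 for Gpx3, -0.81 and -1.37 for Msra, and -0.47 and -1.15 for Sod2. Msrb1 gave -1.22 and -1.55. Double minus single mutant in Sod2 was -0.19 in females and 0.67 in males, and the test of that difference between the sexes gave a limma p of 0.00517 and an adjusted p of 0.156. That test called 0 of 8 enzymes and 0 of 7145 genes.

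Proximal tubule markers moved with most of the peroxide enzymes. All 18 markers had a negative difference from wild type in both mutants, as did 59.2 percent of all tested genes in double and 57.2 percent in single mutants. Their medians were -0.54 in double and -0.63 in single mutants, against -0.08 and -0.07 over all tested genes. None of the 18 passed in the fit of the 3 groups. Adjusted for sex, 9 of 18 were lower in double mutants, 50 percent against 17.8 percent of all tested genes, and 10 of 18 in single mutants, 55.6 percent against 19.9 percent. Slc22a8, an organic anion transporter, was lower by -1.75 in double (limma, adjusted p = 0.0217) and -2.13 in single mutants (adjusted p = 0.0122). Its group means differed by only -0.55 (limma, adjusted p = 0.69) and -0.93 (adjusted p = 0.457). Double mutant 1, at 11.57, and single mutant 3, at 11.60, lay above wild type, at 11.48 and 11.52. Other segments had lower calls in the sex-adjusted fit too. They were 2 of 5 loop of Henle and distal tubule markers in each mutant, 40 percent. Of collecting duct markers, 3 of 7 were lower in double mutants, 42.9 percent, and 1 of 7 in single mutants, 14.3 percent. In the fit of the 3 groups the medians of these 2 lists were -0.06 and -0.25 in double and 0.18 and 0.03 in single mutants. Ranked by the mean of the 18 markers or by Sod2, the 8 arrays had the same order except that single mutants 1 and 3 changed places. For Msrb1 the order was another. Single mutant 3 had the highest marker mean of all mutants, 11.34, and the lowest Msrb1, 8.73, while single mutant 2 had the lowest marker mean and an Msrb1 of 8.78. Over the 8 arrays the Pearson correlation with the marker mean was 0.61 for Msrb1 and 0.595 for Msrb2. It was highest for Sod2, at 0.98, and negative for Msrb3 alone, at -0.79. The other enzymes lay between 0.70 for Gpx4 and 0.96 for Msra. The part of tubule content in the levels of these enzymes, Msrb1 included, was not tested.

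**Figure D3:**
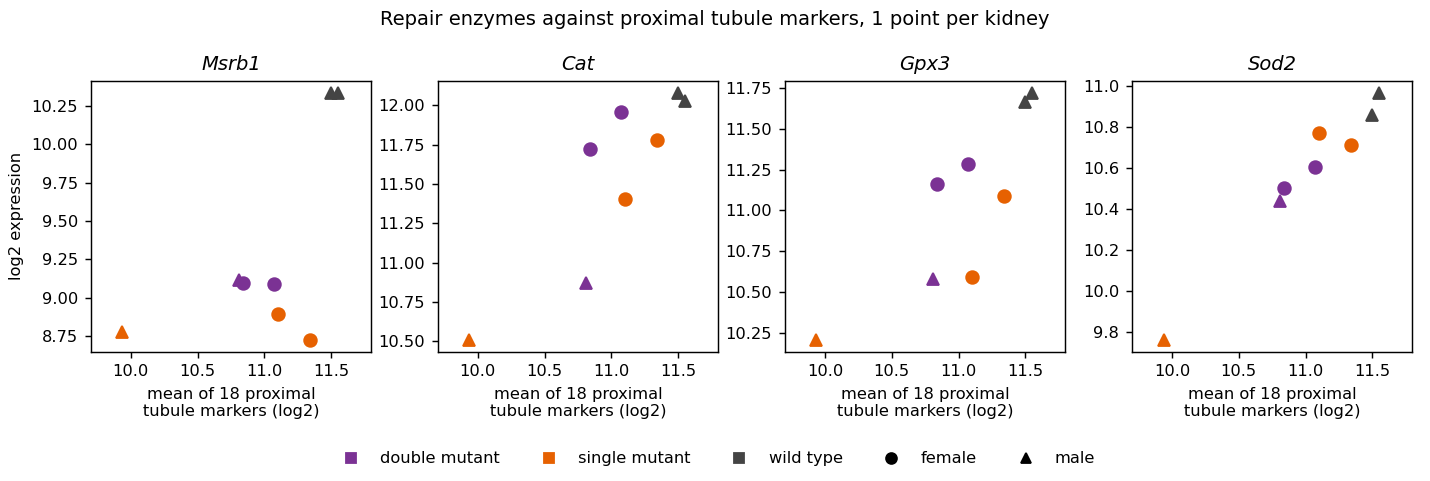
Log2 expression of Msrb1, Cat, Gpx3 and Sod2 (y axes) against the mean of 18 proximal tubule markers (x axis, log2), 1 point per kidney, with genotype as colour and sex as symbol. Over the 8 kidneys the Pearson correlation with the marker mean was 0.98 for Sod2, the highest of the 10 enzymes, and 0.61 for Msrb1. Msrb1 lies between 8.73 and 9.11 in mutants whose marker means run from 9.94 to 11.34.

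Msrb1 belongs to the selenoproteins, and the others were looked at beside it. Of 24 selenoprotein genes 23 were measured and 14 lay above the filter, Msrb1, Gpx1, Gpx3 and Gpx4 among them. Of the 13 besides Msrb1 0 were called in the fit of the 3 groups. The median difference of these 13 was -0.21 in double and -0.19 in single mutants, and 3 and 1 of them had positive values. All tested genes had medians of -0.08 and -0.07. Sephs2, which makes the selenium donor for selenocysteine and is a selenoprotein itself, measured 9.22, 9.04 and 8.84 in double mutants and 9.45, 8.32 and 9.31 in single mutants, against 9.87 and 9.96 in wild type. Its differences were -0.88 (limma, adjusted p = 0.174) and -0.89 (adjusted p = 0.161). Selenop, the plasma protein that carries selenium to tissues, had -0.30 (adjusted p = 0.431) in double and -0.45 (adjusted p = 0.243) in single mutants. In the sex-adjusted fit 5 of the 13 were lower in each mutant, namely Gpx1, Gpx3, Sephs2, Selenot and Selenof, against 17.8 percent of all tested genes in double and 19.9 percent in single mutants. Of these Sephs2 had -1.33 (adjusted p = 0.0112) in double and -1.34 (adjusted p = 0.01) in single mutants.

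**Figure D4:**
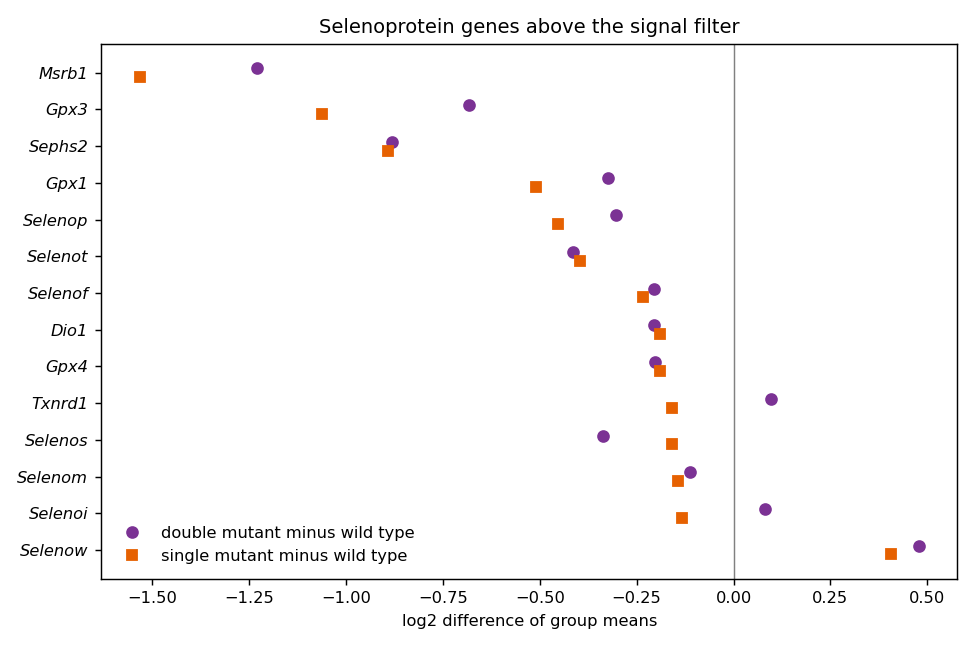
Log2 differences of group means (x axis) from wild type for the 14 selenoprotein genes above the signal filter, double mutants as circles and single mutants as squares. In these means Msrb1 lies furthest to the left at -1.23 and -1.53, and Selenow is the only gene to the right of 0 in both mutants.

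Genes for the insertion and supply of selenocysteine had 8 of 10 members above the filter, with medians of -0.39 in double and -0.30 in single mutants, and none passed in the fit of the 3 groups. Eefsec, the elongation factor that brings selenocysteine to the ribosome, had differences of -0.86 in double mutants (limma, adjusted p = 0.0669) and -0.78 in single mutants (adjusted p = 0.0682). Secisbp2l, related to the protein that binds selenocysteine insertion elements, had -0.43 (adjusted p = 0.138) and -0.32 (adjusted p = 0.206). Adjusted for sex, 2 of 8 were lower in each mutant, 25 percent, against 17.8 percent of all tested genes in double and 19.9 percent in single mutants. They were Eefsec at -0.89 (adjusted p = 0.0112) and -0.80 (adjusted p = 0.0118) and Scly, which frees selenium from selenocysteine, at -1.03 (adjusted p = 0.0264) and -1.16 (adjusted p = 0.0175).

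Thioredoxins supply electrons to the MsrB and Msra enzymes, and they were listed together with peroxiredoxins and related genes. None of the 12 tested genes of this list passed in the fit of the 3 groups, with medians of -0.23 in double and -0.33 in single mutants. Glrx, a glutaredoxin, had -0.77 in double mutants (limma, adjusted p = 0.174) and -1.21 in single mutants (adjusted p = 0.0946). Adjusted for sex, 3 of 12 were lower in double mutants, 25 percent against 17.8 percent of all tested genes, and 6 of 12 in single mutants, 50 percent against 19.9 percent. Prdx3, the mitochondrial peroxiredoxin, had -1.10 (adjusted p = 0.0112) in double and -1.39 (adjusted p = 0.00726) in single mutants. Txn1, the cytosolic thioredoxin, had -0.55 (adjusted p = 0.0621) in double and -0.98 (adjusted p = 0.0118) in single mutants. Txn2, its mitochondrial counterpart, had -0.70 (adjusted p = 0.036) in double and -0.66 (adjusted p = 0.0394) in single mutants.

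Outside the 10 enzymes, 7 further genes of superoxide and peroxide removal were tested, with medians of -0.38 in double and -0.37 in single mutants, and none passed in the fit of the 3 groups. Sod3, the extracellular superoxide dismutase, had -0.63 (limma, adjusted p = 0.204) in double and -0.84 (adjusted p = 0.132) in single mutants, and Sod1, the cytosolic form, had -0.38 (adjusted p = 0.212) and -0.37 (adjusted p = 0.205). The sex-adjusted fit called 1 of 7 lower in double mutants, 14.3 percent against 17.8 percent of all tested genes, and 3 of 7 in single mutants, 42.9 percent against 19.9 percent, Prdx3 among them in both.

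Producers of superoxide and peroxide moved in both directions in the sex-adjusted fit, where 3 of 7 were higher in each mutant, while 2 were lower in double and 3 in single mutants. Over all tested genes 6.4 percent were called higher in double and 7.31 percent in single mutants, while 17.8 percent and 19.9 percent were called lower. Cybb, the catalytic subunit of the phagocyte NADPH oxidase, was higher by 2.40 (limma, adjusted p = 0.0142) in double and 1.90 (adjusted p = 0.0231) in single mutants. Xdh, xanthine dehydrogenase, was higher by 1.49 (adjusted p = 0.0216) and 1.26 (adjusted p = 0.0323). Cyba of the same list went the other way from Cybb, at -0.44 (adjusted p = 0.125) in double and -0.62 (adjusted p = 0.0493) in single mutants. Dao, a peroxisomal D-amino acid oxidase, was lower by -1.99 (adjusted p = 0.00694) and -1.92 (adjusted p = 0.00735), and Hao2 by -2.00 (adjusted p = 0.0331) and -2.20 (adjusted p = 0.0239). Without the sex term Hao2 had only -0.38 (limma, adjusted p = 0.856) in double and -0.58 (adjusted p = 0.742) in single mutants. Its values were 10.32, 10.52 and 9.08 in double mutants and 10.77, 7.41 and 11.13 in single mutants, against 10.20 and 10.50 in wild type. The male was the lowest of each mutant group, so the size of its fall rests on the sex term. None of the 7 passed in the fit of the 3 groups, where their medians were -0.29 in double and -0.34 in single mutants. Among macrophage markers, which share cells with Cybb, 8 of 10 tested were higher in each mutant after adjustment for sex.

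Genes of glutathione, the electron donor of the glutathione peroxidases, gave 0 of 13 calls in the fit of the 3 groups, with medians of -0.31 in double and -0.48 in single mutants. Gss, glutathione synthetase, had -0.99 (limma, adjusted p = 0.0801) in double and -0.95 (adjusted p = 0.109) in single mutants. The sex-adjusted fit gave 8 of 13 lower in double mutants, 61.5 percent against 17.8 percent of all tested genes, and 9 of 13 in single mutants, 69.2 percent against 19.9 percent. Gsta4 was among them at -0.73 (limma, adjusted p = 0.0469) in double and -0.82 (adjusted p = 0.0303) in single mutants. Yet its group means lay above wild type, by 1.06 and 0.97. Gsta3 in double mutants had -0.97 (adjusted p = 0.0464), against 0.14 between the group means. These signs rest on the sex term, whose size comes from the mutants alone. Gstk1, a glutathione transferase of mitochondria and peroxisomes, had -1.86 (adjusted p = 0.012) in double and -2.08 (adjusted p = 0.00927) in single mutants. Gsr, which regenerates reduced glutathione, had -0.80 (adjusted p = 0.0276) in double and -1.09 (adjusted p = 0.0115) in single mutants.

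The methionine cycle and transsulfuration list, which covers the supply and breakdown of free methionine, had 15 tested genes and 0 calls in the fit of the 3 groups. Its medians were -0.39 in double and -0.41 in single mutants. Cbs, cystathionine beta-synthase, had -1.56 in double mutants (limma, adjusted p = 0.0686) and -1.52 in single mutants (adjusted p = 0.0682). Adjusted for sex, 5 of 15 were lower in each mutant, 33.3 percent against 17.8 percent of all tested genes in double and 19.9 percent in single mutants. Cth, the next enzyme on the way to cysteine, had -1.96 (adjusted p = 0.0127) in double and -2.05 (adjusted p = 0.0106) in single mutants. Its group means differed by less, at -0.80 (limma, adjusted p = 0.536) and -0.88 (adjusted p = 0.464). Single mutant 3, at 10.49, reached the wild type level of 10.27 and 10.49. The males were lowest, with 7.89 for single mutant 2 and 8.87 for double mutant 3. The larger size thus rests on the sex term.

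Genes of peroxisome assembly, the compartment of catalase, had a negative difference in 10 of 10 tested genes in both mutants, as did 59.2 percent of all tested genes in double and 57.2 percent in single mutants, with medians of -0.31 in double and -0.35 in single mutants and 0 calls. After adjustment for sex 2 of 10 were lower in each, 20 percent, which is near the 17.8 percent of all tested genes in double and 19.9 percent in single mutants. They were Pex3, needed to build the membrane, at -1.22 (limma, adjusted p = 0.00886) in double and -1.16 (adjusted p = 0.00816) in single mutants, and Pex7, an import receptor, at -0.99 (adjusted p = 0.0108) and -1.04 (adjusted p = 0.00779).

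The genes whose pattern was most like that of Msrb1 over the 8 arrays, by Pearson correlation among the tested genes, were Agtrap at 0.98, Top1mt at 0.97, Tspan3 at 0.97, 2310039H08Rik at 0.97 and Dnajc22 at 0.96. Myo9a at -0.97, Prkci at -0.97 and Tjp1 at -0.97 were the most opposite. These values describe the same difference between mutants and wild type that chose Msrb1. Agtrap, which binds the angiotensin receptor, measured 7.16, 7.31 and 7.26 in double mutants and 7.12, 7.02 and 7.19 in single mutants, against 8.12 and 8.36 in wild type. Tjp1, a tight junction protein, measured 8.89, 8.64 and 8.57 in double mutants and 8.77, 8.86 and 8.85 in single mutants, against 8.05 and 7.98 in wild type. None of the 8 passed the test against wild type, and the smallest adjusted p in limma was 0.0556 for Agtrap and Dnajc22 in double mutants.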

How the data were processed

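Total RNA of 8 mouse kidneys was measured on arrays. The probe sets are those of a whole-transcript gene array, whereas the labels name FlashTag, a reagent made for small RNAs; how far this touches the values was not known here. The deposited table holds log2 expression values of the authors, 1 per probe set and array. The unit was read from the range of the values, 4.20 to 13.43; the normalization behind them was not known here. Of 33793 probe sets, 23521 named 1 gene, 1814 several and 8458 none. Values were used as deposited, and the brightest probe set of a gene was kept; each of the 10 enzymes had 1. Precision is limited by the number of mice per group, since arrays have no read depth.

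Groups were compared with limma 3.58.1 in R 4.3.3, in 1 model of 3 groups (5 residual degrees of freedom, and 4 with the sex term), with two-sided p values adjusted by Benjamini-Hochberg over 7145 genes. The fit was tested on simulated data. The enzymes, gene lists, the sex term and other settings were chosen with earlier results of these data known. The 10 enzymes are named; in other lists the 2 genes of smallest p, and with the sex term up to 6 called genes of largest size, could be named, besides the genes nearest to and most like Msrb1. A list is given by its counts and median beside those of all genes. Gene positions and promoters are from RefSeq, GRCm38.p6. Figures come from matplotlib 3.10.9 (Python 3.11.15). The osteopontin gene was not analysed here.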

Additional observations from a re-analysis of the deposited data

How the results depend on the processing

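Msrb1 was chosen on its differences from wild type, so its calls are no test. Of the 7 other enzymes above the filter, 0 passed against wild type in either mutant. Array weights called Gpx1 and Gpx3 in single mutants and Msrb2 in double mutants, a setting that also called far more of all genes, as counted below. The sex term called 5 of 7 in each mutant, where 17.8 percent of all tested genes were called lower in double and 19.9 percent in single mutants. A fit of only the 2 groups compared gave 0 in single mutants. The counts below for leaving out 1 array from the fit of the 3 groups are over all 8 enzymes, so Msrb1 is counted in them as a description. The replicate number as a block gave 0 in both. Same-numbered double and single mutants correlated at 0.256, -0.339 and -0.577 in their deviations from the group means. Single mutant 2 and double mutant 3 were male, whereas double mutant 2 and single mutant 3 were female. Since same-numbered mice thus differed in sex, these values cannot decide if the numbers pair the mice. Leaving out 1 array in turn gave 0 to 1 in single mutants, with 0 without either wild type or without single mutant 1 or 3, and 0 to 1 in double mutants, with 0 without either wild type or without double mutant 1 or 2. With the sex term kept, an alternative added after the data were seen, leaving out 1 array gave 0 to 6 in single and 1 to 6 in double mutants, or 0 to 5 in both without Msrb1. No setting called an enzyme between the mutants.

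The count of all genes called was 2 in single and 6 in double mutants, of 7145 tested. It became 807 and 1272 of 7145 with array weights and 1946 and 1728 of 7145 with the sex term. With no filter it was 7 and 10, and with only the 2 groups compared it was 0 and 344. In double mutants it was 16 with a filter at the 50th percentile, 590 without single mutant 2 and 41 without double mutant 3. Leaving out 1 array gave 0 to 4 in single and 0 to 590 in double mutants, and the block gave 0 in both.

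Signs reversed between the mutants, with none called, and once against wild type, where Gpx4 in single mutants had 0.05 in the sex-adjusted fit without single mutant 2, against -0.26 with it. Leaving out 1 array in turn gave -0.13 to 0.47 for Msra, -0.23 to 0.28 for Sod2 and -0.079 to 0.61 for Cat, each negative only without single mutant 2, and -0.13 to 0.12 for Gpx4, positive without single mutant 1 (0.12) or double mutant 1 (0.04). Array weights gave -0.13 for Sod2. The causes were not tested. All differences of Msrb1 kept their sign in every setting run. Its 3 groups did not overlap, so leaving out 1 array from the fit of the 3 groups could not have changed a sign.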
